A study of Mus musculus with 4 samples.

Results

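The genes described here are 10 that encode enzymes, and 1 helper protein, of eicosanoid metabolism: Alox5, Alox5ap, Ltc4s, Alox12, Alox15, Ptgs1, Ptgs2, Tbxas1, Hpgds and Hpgd. They were taken by symbol from the 32285 genes of the deposited matrices, and all 10 were present once. Eicosanoids are signalling lipids made from arachidonic acid, which phospholipases release from membranes. Lipoxygenases turn it into leukotrienes and hydroxy acids, cyclooxygenases turn it into prostanoids such as prostaglandins and thromboxane, and dehydrogenases end the prostaglandin signal. In blood, platelets are the classic source of thromboxane and of the 12-lipoxygenase product, basophils and macrophages of leukotrienes, and mouse peritoneal macrophages are rich in 12/15-lipoxygenase.

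The cells were blood mononuclear cells of 2 inbred mouse strains named BL/6 and SM/J in the labels, at 12 and 20 months of age. The labels name no sex, allele or treatment, and the strains and ages are the only groups. Blood was drawn from the heart, mononuclear cells were taken from a density gradient, a slow spin removed platelets, and red cells were lysed, all of which limits what can be said about platelets and granulocytes. Droplet 3′ single-cell libraries were made with tag oligos, 1 library per strain with both ages mixed, and the authors deposited 1 matrix for each strain and age. These 4 matrices are called libraries below. Each strain and age is therefore 1 library with no replicate, no test between them is possible, and strain cannot be told apart from the run of its library. Intervals given below are 95% intervals for counting error only. Each library carries 3 tags, whose meaning (animal, pool or aliquot) is not given in the sources used here. Cells that share a tag are called an aliquot and serve only to show the spread.

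After filters, 11596 of 12299 deposited cells were kept, 2407 to 3398 per library. Median depth was 4060, 4914 and 4729 unique molecular identifiers (UMIs, each a counted transcript molecule) per cell in BL/6 at 12 and 20 months and SM/J at 12 months. It was 8837 in SM/J at 20 months, where the B cells were deeper. That library also held 398 of the 501 cells of the cavity macrophage cluster, whose median over all libraries was 13188 UMIs. No barcode was shared between the ages of a strain. In the 12-month libraries, 20 BL/6 and 28 SM/J deposited cells had a leading tag outside the 3 of their library. The classes were rebuilt by clustering, without the 10 genes or 47 further pathway genes, and named from fixed marker lists, so they are called "like" cells. Levels are given in CPM, the UMIs of a gene scaled to the same total for every class and library. They are compared for 1 gene between classes or libraries, never between genes, since 3′ counts are not comparable between genes. In each list of 4 values the order is BL/6 at 12 months, BL/6 at 20 months, SM/J at 12 months and SM/J at 20 months.

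The classes in question held unequal numbers of cells. Classical monocyte-like cells numbered 243, 464, 113 and 99, and nonclassical monocyte-like cells 352, 705, 409 and 172. At a finer clustering the line between them moved mainly in BL/6, to 116 and 293 classical and 479 and 875 nonclassical cells, beside 110, 97, 412 and 174 in SM/J. The cavity macrophage-like cells, with 11 of 11 markers of macrophages of the body cavities such as Timd4, Vsig4 and Prg4, numbered 30, 38, 35 and 398. Their marker list summed to 12611 CPM or more in every library, against 268 CPM or less in monocytes, B cells and T cells. Basophil-like cells numbered 40, 56, 15 and 11, with 7 of 7 basophil markers and all mast cell markers of the list at 0. Platelet-like barcodes numbered 150, 173, 2 and 0. The monocytes of the 2 strains fell into different clusters: clusters 4 and 5 were nearly all BL/6 and clusters 23 and 24 nearly all SM/J.

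All 10 genes are protein coding. On GRCm38 (GENCODE vM21), Alox12 lies at chr11:70241457-70255353, Alox15 at chr11:70344152-70352031 and Ltc4s at chr11:50236461-50238616. Alox5 lies at chr6:116410077-116461178, Hpgds at chr6:65117293-65144908 and Tbxas1 at chr6:38875404-39084585. Alox5ap (chr5:149264767-149288153), Hpgd (chr8:56294585-56321043), Ptgs1 (chr2:36230426-36252272) and Ptgs2 (chr1:150100031-150108227) lie on other chromosomes. Promoter sequence was matched by symbol for 8 of the 10 genes, from RefSeq on GRCm38.p6 (windows of 250 bases before to 50 after the start site). Alox15 and Alox5ap had no entry. The 250 bases before the start are printed for 3 genes on which the results turn: Hpgd, the gene that differed most between the strains, Alox12, the platelet gene, and Alox5, the first enzyme of leukotriene synthesis. Each is written 5′ to 3′ on the gene's own strand, and capitals mark GAGGAA or its reverse complement, letters found at many binding sites of the myeloid factor PU.1. Hpgd lies on the plus strand, with the stretch at chr8:56294302-56294551. Alox12 (chr11:70255371-70255620) and Alox5 (chr6:116461179-116461428) lie on the minus strand.
Hpgd: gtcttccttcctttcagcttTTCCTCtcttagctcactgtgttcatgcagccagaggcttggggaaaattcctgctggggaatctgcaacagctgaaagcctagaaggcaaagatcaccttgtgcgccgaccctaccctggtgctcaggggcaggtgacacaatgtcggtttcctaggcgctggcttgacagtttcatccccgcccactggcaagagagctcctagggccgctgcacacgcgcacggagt
Alox12: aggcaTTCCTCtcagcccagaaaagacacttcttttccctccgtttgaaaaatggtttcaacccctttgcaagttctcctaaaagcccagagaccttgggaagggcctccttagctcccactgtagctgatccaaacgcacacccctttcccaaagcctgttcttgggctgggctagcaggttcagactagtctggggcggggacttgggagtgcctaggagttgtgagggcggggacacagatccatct
Alox5: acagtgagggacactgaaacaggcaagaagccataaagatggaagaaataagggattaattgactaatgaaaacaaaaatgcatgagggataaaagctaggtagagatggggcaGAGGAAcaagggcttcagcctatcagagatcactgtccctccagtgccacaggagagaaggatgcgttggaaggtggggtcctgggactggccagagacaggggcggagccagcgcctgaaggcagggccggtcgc
Searched on both strands, GAGGAA occurred once in each of the 8 promoter windows of these genes and in 28.3% of all 32851 windows of the same length. The letters AGATAA or TGATAA, found at sites of GATA factors, occurred in none of the 8 and in 18.6% of all windows. A match is a run of letters and not a measured site, and no match says only that the letters are not in this window. The platelet gene Alox12 and the myeloid gene Hpgd hold the same letters, so the match does not separate the genes by cell class.

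The genes differed in the class that held their highest level. The 10 genes fell into a macrophage group (Alox15, Ltc4s, Ptgs1 and Tbxas1, the last pair also high in platelets and Tbxas1 in some dendritic cells as well), a platelet gene (Alox12), a gene of basophils and neutrophils (Ptgs2), a monocyte gene (Hpgd), a pair spread over myeloid cells (Alox5 and Alox5ap) and a gene that was low everywhere (Hpgds). B, T and NK cells held little of them apart from Hpgds. This layout is shown in the map of levels by class and library, read along each row.

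**Figure D1:**
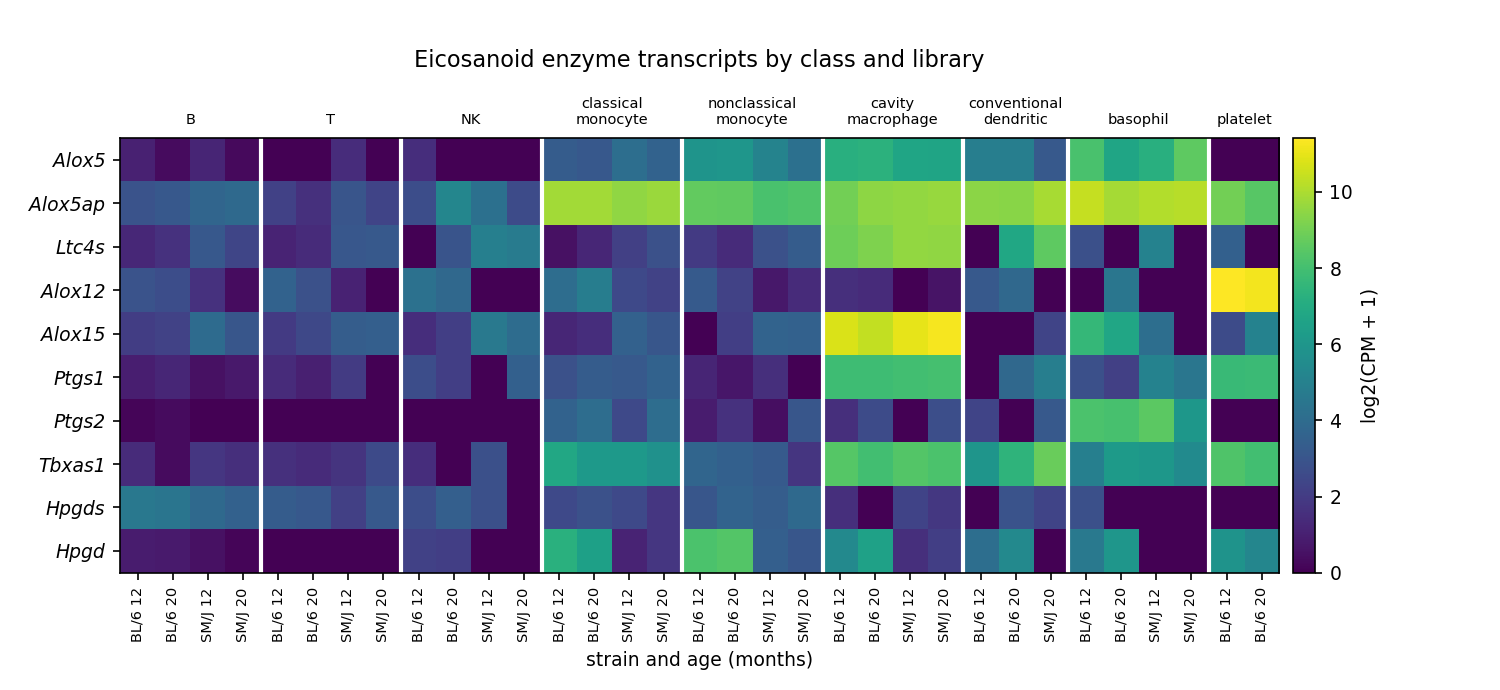
Levels of the 10 genes as log2(CPM + 1), by colour, in each class and library with at least 10 cells (columns, grouped by class). Alox12 was brightest in platelets, Alox15 and Ltc4s in cavity macrophages, and Hpgd in the BL/6 columns of both monocyte classes; colours of different rows are not comparable.

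Leukotriene synthesis begins with 5-lipoxygenase (Alox5), which needs the membrane helper FLAP (Alox5ap), and leukotriene C4 synthase (Ltc4s) makes the cysteinyl leukotrienes. Alox5 in cavity macrophages stood at 145, 162, 103 and 99.3 CPM. In basophils Alox5 stood at 279.6, 103, 147 and 388 CPM, from only 48, 29, 9 and 18 UMIs. The order of these 2 classes changed between libraries, and their intervals overlapped in BL/6 at 20 months and in SM/J at 12 months. The few neutrophil-like cells (4, 11, 1 and 11) had 6, 9, 0 and 14 UMIs of Alox5. These are raw counts from few cells and not CPM, so they do not place neutrophils below the other classes. Nonclassical monocytes held 59.5, 62.3, 33.0 and 17.8 CPM of Alox5, and classical monocytes 9.15, 7.83, 16.5 and 11.1 CPM. The nonclassical level was the higher of the 2 in each library, with intervals apart in BL/6 and overlapping in SM/J at both ages. In platelets of BL/6 Alox5 had no UMI in 150 and 173 barcodes, which allows up to 2% and 1.73% of barcodes with a UMI at their median depth of 1034.5 and 998 UMIs, and bounds no share of expressing platelets. Also, in T cells 3 of the 4 libraries had none.

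FLAP transcript was broader than that of its enzyme. Alox5ap stood at 1339.9, 938, 1111 and 1163 CPM in basophils, and classical monocytes held 897, 922, 734 and 829 CPM, with overlapping intervals at 20 months in both strains. Cavity macrophages held 509.7, 710.4, 750.2 and 800.4 CPM, and nonclassical monocytes 402, 399, 279 and 306 CPM. Classical monocytes thus carried more Alox5ap than nonclassical monocytes in each of the 4 libraries, with intervals apart, but less Alox5, so the enzyme and its helper did not have the same order over monocytes. Conventional dendritic-like cells held 697 and 675 CPM of Alox5ap in BL/6 at 12 and 20 months. In SM/J at 20 months they held 962 CPM, with an interval that overlapped that of classical monocytes. Alox5ap was also read in BL/6 platelets, at 502 and 349 CPM, where Alox5 was at 0. B cells held 6.66 to 14.1 CPM and T cells 1.96 to 6.95 CPM of Alox5ap.

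Ltc4s was a gene of the cavity macrophages, at 477, 584, 762 and 726 CPM from 247, 346, 391 and 4153 UMIs. Monocytes of both kinds held 0.436 to 8.89 CPM, and basophils 1, 0, 2 and 0 UMIs in all. Conventional dendritic-like cells held 0, 109, 29.8 and 384 CPM of Ltc4s, and their cavity macrophage marker list summed to 28.5, 601, 29.8 and 2394 CPM, moving with it. The part of macrophage transcripts in the dendritic level was not tested. Alox15 had 0, 0, 0 and 1 UMI in those dendritic cells, beside 0, 49, 2 and 95 UMIs of Ltc4s. All 3 leukotriene genes were seen together in 80% (24 of 30), 78.9% (30 of 38), 68.6% (24 of 35) and 69.6% (277 of 398) of cavity macrophages. In nonclassical monocytes Alox5 and Alox5ap were seen together in 11.6% to 26.1% of cells, and in classical monocytes in 5.76% to 8.85%.

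Alox15, the 12/15-lipoxygenase that in mouse makes mainly 12-hydroxy acids, had its highest level in cavity macrophages, at 1739.5, 1304, 2038 and 2429 CPM. It had a UMI in 90% (27 of 30), 97.4% (37 of 38), 100% (35 of 35) and 96.2% (383 of 398) of these cells. Spread over cells was wide: the median cell held 1743, 1346, 1788 and 2379.5 CPM, and the lower to upper quartile ran from 1375 to 3226 CPM in the largest group, SM/J at 20 months. The 3 aliquots of that library held 2396, 2414 and 2486 CPM. Alox15 was also among the 10 leading genes of the cluster, although it had not been used to make it.

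Outside macrophages Alox15 was read in BL/6 basophils, at 192 and 106 CPM (33 and 30 UMIs, in 55% and 30.4% of cells), but from 1 UMI in 15 and none in 11 SM/J basophils. The shallow SM/J barcodes with platelet markers held 151 and 189 CPM from 8 and 5 UMIs, and BL/6 platelets 5.13 and 32.2 CPM from 1 and 7 UMIs. In basophils at 12 months the counting intervals of Alox15 in BL/6 and SM/J were apart (132 to 270 and 0.414 to 91.1 CPM). At 20 months they overlapped (71.6 to 152 and up to 79.5 CPM), so no difference was detectable at that depth. Beside 33 and 30 UMIs of Alox15, BL/6 basophils had 1 and 0 UMIs of Ltc4s and 9 and 30 UMIs of the whole cavity macrophage list. In cavity macrophages the same libraries held 13.8 and 9.62 UMIs of Alox15 per 100 UMIs of that list, and the part of macrophage RNA in the basophil level was not tested. B cells had 3.27, 3.71, 15.0 and 7.28 CPM of Alox15 and T cells 2.82, 4.58, 9.27 and 10.0 CPM. There the ratio of Alox15 to Ltc4s UMIs was 1.23 to 2.80, against 2.23 to 3.65 in macrophages. Per 100 UMIs of the cavity macrophage list, B cells held 4.43, 5.09, 6.83 and 7.38 UMIs of Alox15, below the 9.62 to 15.4 of macrophages. The part of free macrophage RNA in the lymphocyte values was not tested, and no expression is read from them.

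Alox12, the platelet 12-lipoxygenase, had its highest level in BL/6 platelets, at 2728 and 2371 CPM (532 and 516 UMIs), and was seen in 92.7% and 86.7% of platelet barcodes although these held a median of only 1034.5 and 998 UMIs. SM/J had 2 platelet barcodes in all, a count that depends on the clustering: it was 65 and 24 with a 20% mitochondrial limit, with called doublets kept or with each strain clustered alone. SM/J had instead most of a shallow unnamed cluster (63 and 24 of 91 barcodes, median 727 UMIs) that held 7 of 8 platelet markers but was led by other genes, and Alox12 stood at 1186 and 1172 CPM there. Per 100 UMIs of the platelet marker list, Alox12 had 7.32 and 5.93 UMIs in BL/6 platelets and 7.33 and 8.18 UMIs in the SM/J barcodes of that cluster. The platelet marker list summed to 16190 and 14330 CPM in those SM/J barcodes, so the cluster held Alox12 at the platelet ratio to its markers.

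In BL/6 monocytes, Alox12 was read mainly in cells with platelet transcripts, while the few SM/J UMIs did not separate the cells. Classical monocytes held 15.7, 27.7, 4.72 and 3.71 CPM of Alox12. Their platelet marker list summed to 258, 543, 112 and 135 CPM, and both were lower in SM/J. In BL/6 at 12 months, the 128 classical monocytes with a UMI of the platelet chemokines Pf4 or Ppbp held 25.9 CPM of Alox12 and the 115 others 2.04 CPM. At 20 months the 317 with one held 35.9 CPM and the 147 others 3.55 CPM. Alox12 per 100 platelet marker UMIs was 6.08, 5.10, 4.21 and 2.75 in classical monocytes, beside 7.32 and 5.93 in BL/6 platelets. Whether whole platelets or free platelet RNA came with these cells was not tested. Other BL/6 classes held similar levels of Alox12. NK cells had 18.3 and 13.5 CPM at 12 and 20 months, T cells 10.9 CPM at 12 months and basophils 21.2 CPM at 20 months. Each interval overlapped that of classical monocytes of the same library. In cavity macrophages the platelet list summed to 927 to 2800 CPM, with 8, 5, 4 and 6 of its 8 genes detected, and Alox12 had 1, 1, 0 and 3 UMIs. Those were 0.208, 0.0683, 0 and 0.0280 Alox12 UMIs per 100 UMIs of the list, far below the ratio in platelets.

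**Figure D2:**
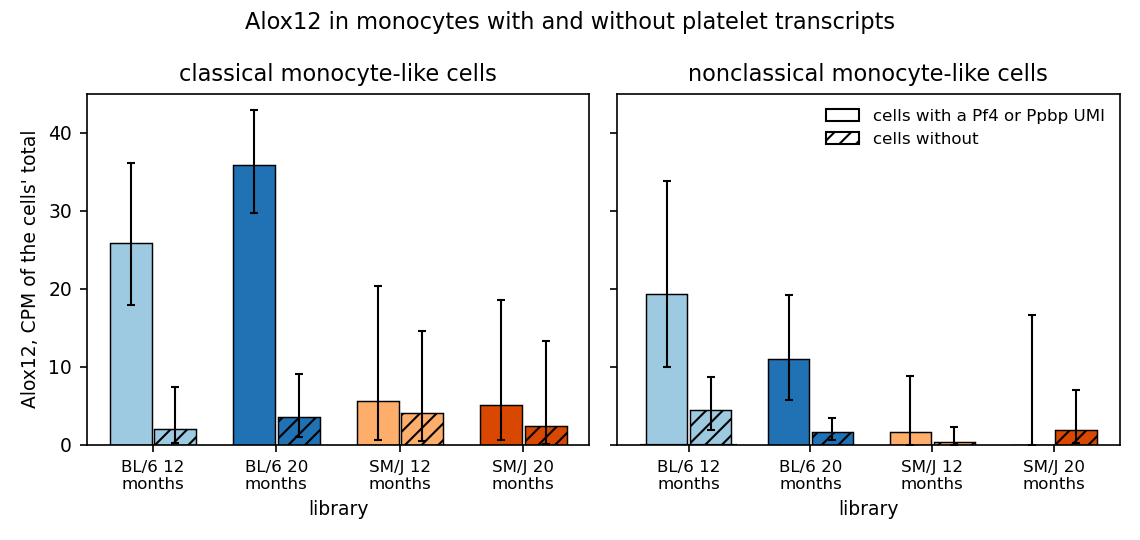
Alox12 level (CPM of the cells' total, bars from 0, with 95% counting intervals) in monocyte-like cells with (plain) and without (hatched) a Pf4 or Ppbp UMI, by library. In BL/6 classical monocytes the plain bars stand at 25.9 and 35.9 CPM and the hatched ones at 2.04 and 3.55 CPM.

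Prostanoid synthesis starts with the cyclooxygenases: Ptgs1 is the constitutive enzyme and Ptgs2 the inducible one. Ptgs1 stood at 236, 231, 247 and 267 CPM in cavity macrophages and at 210 and 221 CPM in BL/6 platelets. The macrophage intervals of the 4 libraries overlapped, and the platelet intervals (151 to 285 and 163 to 292 CPM) covered all 4 macrophage values. Monocytes of both kinds held 11.1 CPM or less of Ptgs1. Thromboxane synthase (Tbxas1), which uses the cyclooxygenase product, stood at 338, 251, 327 and 293 CPM in cavity macrophages and at 308 and 248 CPM in BL/6 platelets. Conventional dendritic-like cells held 61.2, 173, 29.8 and 441 CPM of Tbxas1, from 15, 78, 2 and 109 UMIs. In SM/J at 20 months the dendritic level was above that of the macrophages, with intervals apart (362 to 532 and 279 to 307 CPM), and in BL/6 at 20 months it overlapped that of platelets. The dendritic cavity macrophage marker sums given for Ltc4s (28.5, 601, 29.8 and 2394 CPM) were high in the same libraries, and their part in the Tbxas1 level was not tested. Ptgs1 and Tbxas1 were seen together in 83.3%, 81.6%, 85.7% and 79.1% of the macrophages, and all 6 macrophage genes (Alox5, Alox5ap, Ltc4s, Alox15, Ptgs1 and Tbxas1) in 70%, 63.2%, 62.9% and 56.0%.

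Tbxas1, unlike Ptgs1, was also a classical monocyte transcript. It stood at 114, 71.6, 69.6 and 53.1 CPM in classical and 12.4, 10.3, 8.34 and 2.43 CPM in nonclassical monocytes. Classical monocytes without a Pf4 or Ppbp UMI still held 122, 84.3, 56.8 and 33.3 CPM, and those with one 108, 67.3, 87.3 and 74.4 CPM, so in BL/6 the cells with platelet transcripts did not hold the higher level. In SM/J they did, with intervals that overlapped.

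Ptgs2 stood at 285, 276, 376 and 64.6 CPM in basophils (49, 78, 23 and 3 UMIs). The few neutrophil-like cells held 155, 378, 222 and 348 CPM, from 4, 15, 1 and 22 UMIs in 4, 11, 1 and 11 cells. The intervals of the 2 classes overlapped in BL/6 and SM/J at 12 months and in BL/6 at 20 months, while in SM/J at 20 months the neutrophil level was the higher (218 to 526 against 13.3 to 189 CPM). It was seen in 32.5%, 32.1%, 40% and 9.09% of basophils, the last from 1 of 11 cells. The 3 highest cells held 40.8% and 46.2% of the BL/6 basophil UMIs, and cells without a UMI are not shown to lack the transcript. Classical monocytes held 10.9, 15.7, 4.72 and 16.1 CPM, and T and NK cells had no Ptgs2 UMI in any library. Alox5 and Ptgs2 met in 20%, 12.5% and 33.3% of basophils of the first 3 libraries and in 0 of 11 cells of SM/J at 20 months.

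Hpgds, the haematopoietic prostaglandin D synthase, is known from mast cells and some T helper cells, and it was low here. It stood at 23.0, 20.9, 14.1 and 10.7 CPM in B cells, at 8.85, 7.84, 3.48 and 8.0 CPM in T cells and at 7.43, 11.5, 9.3 and 13.7 CPM in nonclassical monocytes. Basophils held 1 UMI of Hpgds in BL/6 at 12 months and none in the other libraries.

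Hpgd encodes the dehydrogenase that inactivates prostaglandin E2 and related lipids, and it gave the largest strain difference of the 10 genes. Nonclassical monocytes held 289, 332, 9.95 and 7.28 CPM, from 700, 1610, 31 and 9 UMIs. Classical monocytes held 149, 88.1, 1.18 and 2.47 CPM, from 343, 394, 1 and 2 UMIs. Both BL/6 libraries were high and both SM/J libraries low in both classes. The nonclassical aliquots ran from 252 to 317 CPM and from 297 to 366 CPM in BL/6, and from 6.71 to 11.4 CPM and from 2.98 to 10.6 CPM in SM/J, so no SM/J aliquot came near a BL/6 one. The classical aliquots of BL/6 ran from 129 to 182 and from 61.7 to 116 CPM.

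At 12 months the SM/J level in nonclassical monocytes was 26.5-fold lower (interval 20.3 to 43.1), with a log2 ratio of CPM + 1 of -4.73 (-5.43 to -4.34). At 20 months it was 40.2-fold lower (24.0 to 100), with a log2 ratio of -5.33 (-6.64 to -4.58). In classical monocytes the log2 ratios were -6.11 (-12.29 to -4.50) and -4.68 (-8.21 to -3.29), and with 1 and 2 SM/J UMIs their size is poorly fixed. Among all genes with at least 50 UMIs in the comparison, Hpgd had the 7th lowest ratio of 7840 and the 5th lowest of 7892 in nonclassical monocytes. In classical monocytes it had the lowest ratio of 6395 genes at 12 months and the 6th lowest of 7648 at 20 months. Reads of both strains were aligned to the BL/6-based mouse genome, and how far sequence differences in the 3′ end of the SM/J transcript lowered its count was not tested.

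**Figure D3:**
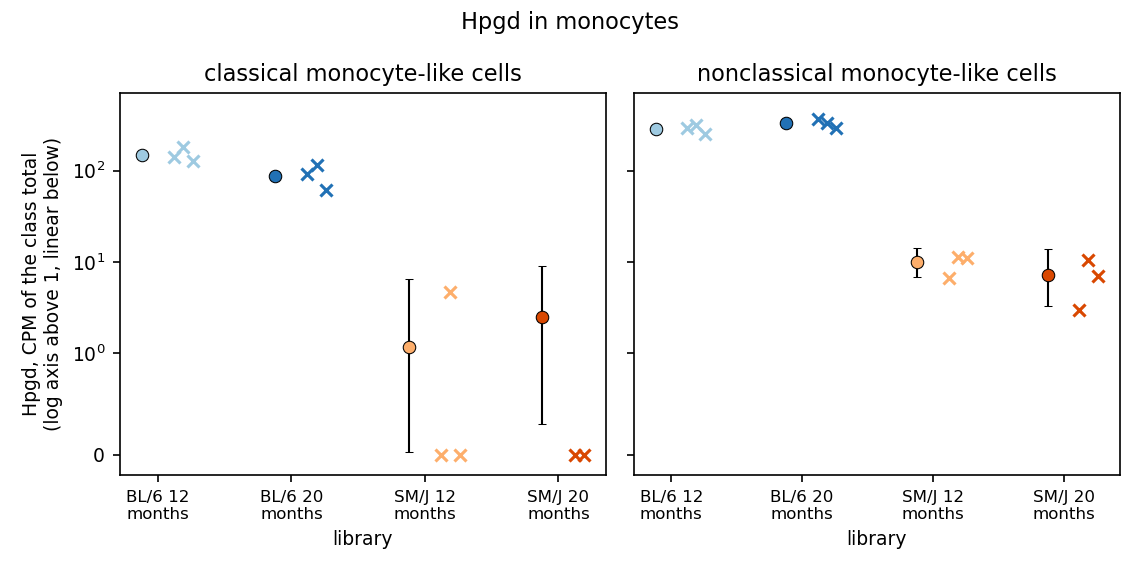
Hpgd level in monocyte-like cells (CPM, log axis above 1 and linear below). Circles are libraries with 95% counting intervals and crosses are aliquots of at least 20 cells. In nonclassical monocytes the BL/6 libraries stand at 289 and 332 CPM and the SM/J libraries at 9.95 and 7.28 CPM.

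The shares of cells with a UMI follow from these totals and are given as a description. Hpgd was seen in 56.8% and 68.7% of BL/6 and 4.40% and 4.07% of SM/J nonclassical monocytes, whose median depths were 6054, 5477, 5613 and 6508 UMIs. With 351, 703, 403 and 171 of these cells thinned to 1000 UMIs each, the shares were 21.7%, 26.5%, 1.02% and 0.710%. T cells, with median depths of 5074, 5203, 4319.5 and 3994 UMIs, had no Hpgd UMI in 443, 530, 360 and 229 cells, which allows up to 0.677%, 0.566%, 0.833% and 1.31% of cells with a UMI at that depth. B cells held 0.119 to 0.818 CPM, so the SM/J monocyte level of 7.28 to 9.95 CPM in nonclassical cells stood above the lymphocyte level. Monocytes held 92.5% and 93.2% of all Hpgd UMIs of the BL/6 libraries, 88.9% in SM/J at 12 months and 34.4% (11 of 32 UMIs) in SM/J at 20 months. These are shares of the UMIs of all deposited cells, including cells that the filters left out. The cluster of BL/6 nonclassical monocytes had Hpgd among its leading genes although the gene was left out of clustering.

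Hpgd in cavity macrophages was of another kind. It stood at 40.5, 92.8, 1.95 and 3.32 CPM, but the median macrophage had none in any library. In BL/6 it was seen in 4 of 30 and 6 of 38 cells, and 3 cells held 85.7% and 90.9% of the UMIs, with 41 of 55 UMIs in 1 cell at 20 months. BL/6 basophils had 4 and 18 UMIs in 2 and 5 cells, and SM/J basophils none. The macrophage and basophil means of Hpgd in BL/6 thus rest on a few cells. BL/6 platelets held 56.4 and 36.8 CPM of Hpgd, from 11 and 8 UMIs in 8 and 7 barcodes, with aliquots from 27.4 to 107 and from 0 to 62.5 CPM.

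Both ages of a strain were mixed in 1 library preparation, so age ratios hold no run difference, but each age is still 1 matrix. A ratio was counted as past 2-fold only for genes with at least 50 UMIs over both libraries. In classical monocytes none of 7 genes in BL/6 and none of 2 in SM/J passed 2-fold, where 3.13% and 3.2% of all genes did. In nonclassical monocytes none of 5 and none of 2 passed, beside 2.92% and 1.81% of all genes. In cavity macrophages 1 of 7 in BL/6 (Hpgd, higher) and none of 6 in SM/J passed, beside 5.2% and 7.24%. In BL/6 basophils 1 of 4 passed (Alox5, lower) beside 8.51%, and in BL/6 platelets none of 4 beside 2.97%. Over the genes with enough UMIs, the median log2 ratio was 0.04 in BL/6 classical and 0.07 in BL/6 nonclassical monocytes, beside 0.02 and 0.04 over all genes. In SM/J it was -0.10 in classical and -0.36 in nonclassical monocytes, over 2 genes each, beside 0.01 and -0.02. It was 0.16 and 0.02 in BL/6 and SM/J macrophages, beside 0.03 and 0.00, and -0.68 in BL/6 basophils and -0.26 in BL/6 platelets, beside 0.05 and 0.02.

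**Figure D4:**
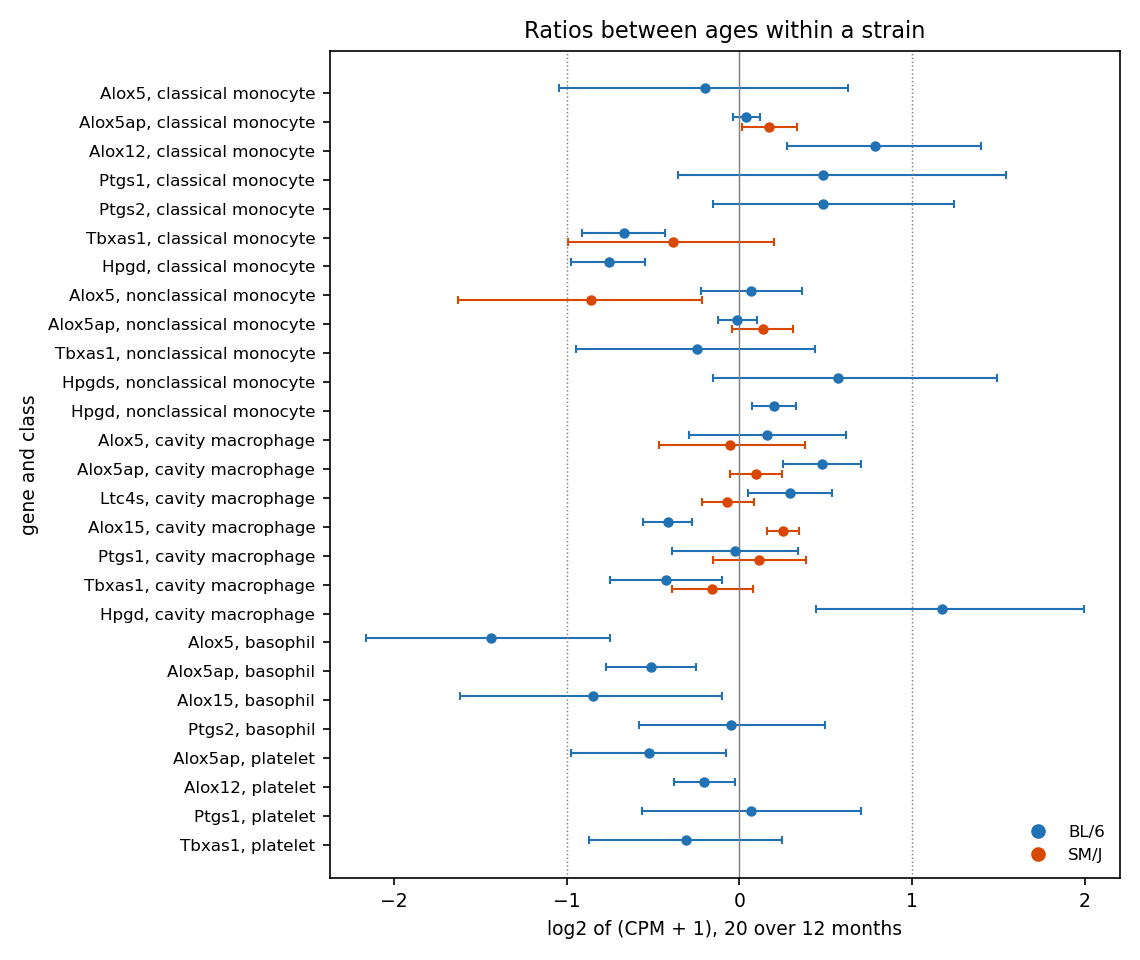
Log2 ratio of CPM + 1 at 20 over 12 months for each gene and class with at least 50 UMIs over both ages, with 95% counting intervals; dotted lines mark 2-fold. Alox15 in cavity macrophages lies at -0.42 in BL/6 and 0.25 in SM/J, on either side of 0.

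Smaller differences between the ages went past counting error in places. In BL/6 classical monocytes, Hpgd was lower at 20 months (log2 ratio -0.76, -0.97 to -0.55) and so was Tbxas1 (-0.67, -0.91 to -0.43), while Alox5ap had a ratio of 0.04 (-0.04 to 0.12). At a finer clustering the ratio of Hpgd was -1.20, past 2-fold. Ptgs2 had a ratio of 0.49 (-0.15 to 1.24), of 1.34 without aliquot 2 of the 12-month library and of -0.19 without cells with a Pf4 or Ppbp UMI, so no direction is given for it. In BL/6 nonclassical monocytes Hpgd was instead slightly higher, by 0.20 (0.07 to 0.33). Tbxas1 in SM/J classical monocytes had a ratio of -0.38 with an interval from -0.99 to 0.20, and 1.07 when each strain was clustered alone, so no direction is given for it. Alox12 in BL/6 classical monocytes had a ratio of 0.78 (0.28 to 1.40), and of 1.11 without aliquot 1 of the 12-month library, beside platelet marker sums of 258 and 543 CPM. In BL/6 platelets the ratio was -0.20 (-0.38 to -0.02) for Alox12 and -0.52 (-0.98 to -0.08) for Alox5ap, while those of Ptgs1 and Tbxas1 included 0.

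In cavity macrophages, Alox15 had opposite age ratios in the strains. The BL/6 ratio was -0.42 (-0.56 to -0.28), lower at 20 months, and the SM/J ratio was 0.25 (0.16 to 0.34), higher at 20 months. The spread between cells was large beside this, and the BL/6 values rest on 30 and 38 cells. Alox5ap was higher at 20 months in BL/6 (0.48, 0.25 to 0.71), and so was Ltc4s (0.29, 0.05 to 0.53), while Tbxas1 was lower (-0.42, -0.75 to -0.10). In SM/J the age ratios of Alox5, Alox5ap, Ltc4s, Ptgs1 and Tbxas1 had intervals that included 0. Hpgd in BL/6 macrophages had a ratio of 1.17 (0.45 to 1.99), which turned to -0.76 without aliquot 1 of the 20-month library, beside the 1 cell that held 41 of its 55 UMIs.

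**Figure D5:**
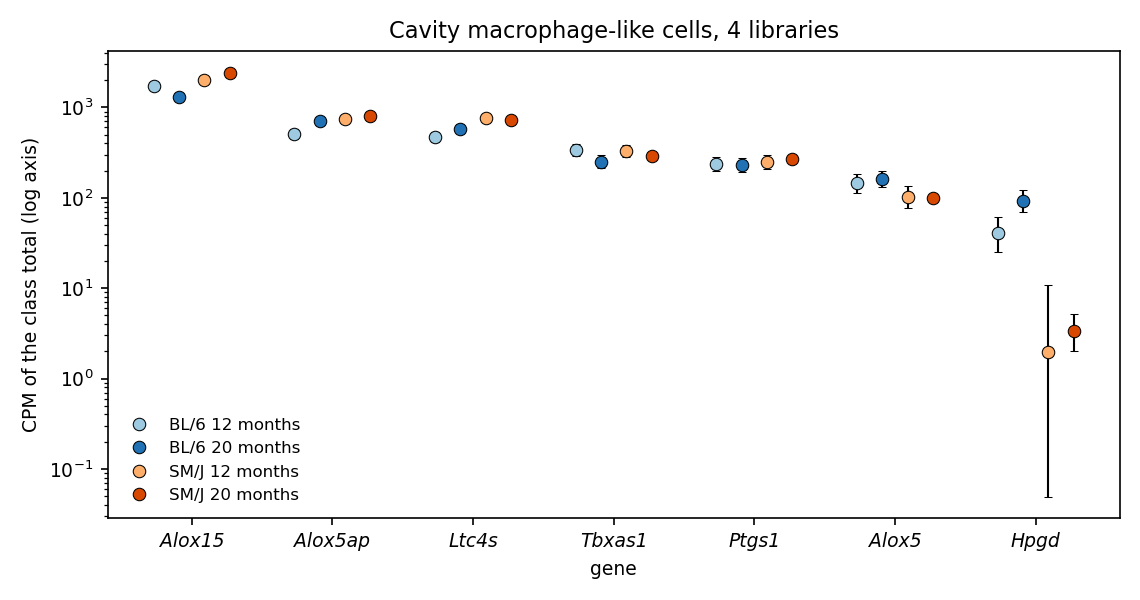
Levels of 7 of the genes in cavity macrophage-like cells (CPM of the class total, log axis), 1 point per library with its 95% counting interval. All but Hpgd lie within a factor of 2 over the 4 libraries, and Hpgd stands at 40.5 and 92.8 CPM in BL/6 and at 1.95 and 3.32 CPM in SM/J.

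In BL/6 basophils, Alox5 was lower at 20 months (log2 ratio -1.44, -2.16 to -0.75), and Alox5ap was lower too (-0.51, -0.77 to -0.25). Alox15 there had a ratio of -0.85 (-1.62 to -0.10), which passed 2-fold without aliquot 1 (-1.04) or aliquot 2 (-1.18) of the 20-month library. Ptgs2 had a ratio of -0.05 (-0.58 to 0.50). The basophil marker list moved in the same comparison, with a sum of 4125 CPM at 12 and 2499 CPM at 20 months. Of its 7 genes, 6 were lower at 20 months, among them Mcpt8 (967 and 283 CPM), and Cpa3 was higher (355 and 407 CPM). The part of this shift in the Alox5 and Alox5ap ratios was not tested. The 4 basophil genes were measured in 40 and 56 cells, and SM/J had too few basophils for ratios.

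Between the strains, 1 of 3 genes with enough UMIs passed 2-fold in classical monocytes at 12 months (Hpgd, lower in SM/J) beside 6.82% of all genes, and 2 of 5 at 20 months (Hpgd and Alox12, lower) beside 7.51%. Alox12 there had a log2 ratio of -2.61 (-5.20 to -1.32), from 3 and 124 UMIs. When cells with a Pf4 or Ppbp UMI were left out it was -0.43, from only 1 and 4 UMIs. In nonclassical monocytes 1 of 4 passed at 12 months (Hpgd, lower) beside 7.33%, and 3 of 5 at 20 months (Hpgd, Alox5 and Tbxas1, all lower) beside 5.74%. In cavity macrophages none of 6 passed at 12 months beside 10.2%, and 1 of 7 at 20 months (Hpgd, lower) beside 12.7%. That Hpgd ratio was -4.44 (-5.64 to -4.03), and it was -2.51 without aliquot 1 of the BL/6 20-month library and -3.55 with a pseudocount of 5 CPM. The median log2 ratio of the genes with enough UMIs was -0.71 and -0.42 in classical, -0.68 and -1.72 in nonclassical monocytes and 0.15 and 0.21 in macrophages at 12 and 20 months. Over all genes it lay between 0.05 and 0.11.

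Alox5 in nonclassical monocytes was lower in SM/J at both ages. Its log2 ratio was -0.83 (-1.23 to -0.47) at 12 months and -1.75 (-2.50 to -1.18) at 20 months, the second a 3.37-fold lower level (2.27 to 5.67). The aliquots ran from 47.2 to 69.3 and 51.3 to 68.3 CPM in BL/6 and from 22.2 to 41.3 and 16.3 to 20.9 CPM in SM/J, without overlap between the strains. Within SM/J the ratio between ages was -0.86 (-1.63 to -0.22), which passed 2-fold without aliquot 3 of the 12-month library (-1.08). The 12-month strain ratio passed 2-fold without BL/6 aliquot 1 (-1.002) or SM/J aliquot 2 (-1.04), and was -0.36 at the finer clustering. Alox5ap in the same cells was lower in SM/J by less, -0.53 (-0.66 to -0.40) and -0.38 (-0.54 to -0.22). In classical monocytes the Alox5 counts were 21, 35, 14 and 9 UMIs, and no strain difference could be read from them.

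Tbxas1 in nonclassical monocytes at 20 months was lower in SM/J (-1.72, -4.41 to -0.46), from 3 UMIs against 50, and the ratio was -2.42 without SM/J aliquot 1 and -2.49 at a finer clustering, but -1.04 with a pseudocount of 5 CPM. In cavity macrophages the strain ratios of Alox15 were 0.23 (0.10 to 0.36) at 12 months and 0.90 (0.79 to 1.00) at 20 months, the second being 1.04 with a limit of 5% mitochondrial UMIs. Ltc4s was higher in SM/J at both ages (0.67, 0.44 to 0.91, and 0.31, 0.16 to 0.48), and so was Alox5ap (0.56, 0.33 to 0.79, and 0.17, 0.03 to 0.32). Alox5 was lower in SM/J macrophages at 20 months (-0.70, -1.02 to -0.38). Ptgs1 and Tbxas1 had strain ratios between -0.05 and 0.22 there, with intervals that included 0.

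Of 47 other genes of the pathway, listed with roles from phospholipases to receptors, 16 of 156 gene and comparison pairs with at least 50 UMIs were 2-fold apart. Between the strains, classical monocytes had 2 of 12 at 12 months and 4 of 17 at 20 months, beside 6.82% and 7.51% of all genes. Nonclassical monocytes had 1 of 12 and 4 of 13, beside 7.33% and 5.74%, and macrophages none of 5 and 1 of 19, beside 10.2% and 12.7%. Between the ages, BL/6 and SM/J had none of 18 and none of 8 in classical monocytes (3.13% and 3.2%), 2 of 14 and none of 11 in nonclassical monocytes (2.92% and 1.81%), and none of 5 and 2 of 19 in macrophages (5.2% and 7.24%). BL/6 basophils had none of 2 (8.51%) and BL/6 platelets none of 1 (2.97%). From this list, 4 genes met the rule for being named. Ptgis, prostacyclin synthase, was highest in the cavity macrophages, at 278, 287, 382 and 363 CPM. The level was between 20.3 and 152 times that of the next class, but both of these next levels came from 1 UMI (intervals 0.477 to 105 and 0.0463 to 10.2 CPM), so the ratios are poorly fixed. Like Tbxas1, the enzyme uses the cyclooxygenase product. Lta4h, which makes leukotriene B4, was lower in SM/J nonclassical monocytes, at 60.7, 53.0, 25.3 and 25.1 CPM (log2 ratios -1.23, -1.67 to -0.86, and -1.05, -1.67 to -0.54). In NK cells Lta4h stood at 73.2, 94.3, 29.3 and 30.6 CPM and in T cells at 48.3 and 42.5 CPM in BL/6 against 30.7 CPM or less in SM/J, with overlapping intervals of the strains in each. B cells held 15.0 to 18.0 CPM and cavity macrophages 28.7 to 37.0 CPM, also with overlapping intervals.

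Cyp4f18, which breaks down leukotriene B4 in mouse myeloid cells, was lower in SM/J classical monocytes, at 138, 107, 8.25 and 11.1 CPM (log2 ratios -3.91, -5.39 to -3.01, and -3.15, -4.40 to -2.33). Nonclassical monocytes held 272, 153, 159 and 121 CPM, lower in SM/J by less than 2-fold. In basophils Cyp4f18 stood at 612, 552, 588 and 560.1 CPM, with overlapping intervals. B cells held 91.1, 91.9, 71.6 and 79.0 CPM, with the strains' intervals apart at 12 months (84.8 to 97.7 and 61.3 to 83.1 CPM). Fpr2, a receptor for lipoxin and formyl peptides, was higher in SM/J classical monocytes at both ages, at 25.7, 23.0, 58.9 and 64.2 CPM (1.17, 0.62 to 1.77, and 1.44, 0.97 to 1.97). In nonclassical monocytes Fpr2 stood at 105, 61.2, 114 and 162 CPM. The strain ratio there was 0.11 (-0.12 to 0.35) at 12 months and 1.39 (1.13 to 1.66) at 20 months, while the BL/6 age ratio was -0.77 (-1.02 to -0.53). Fpr2 was also higher at 20 over 12 months in SM/J macrophages (1.04, 0.18 to 2.16).

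For each gene with a class sum of at least 50 CPM, the 3 genes with the most similar pattern were found over 38 sums of class and library. Alox12 came with the platelet genes Gp9 (r = 0.969), Treml1 (0.960) and Mpig6b (0.958). Ltc4s came with Timd4 (0.901), Ccl7 (0.887) and Dpysl3 (0.869), and Alox15 with Cxcl13 (0.887), Ltbp1 (0.857) and Fcna (0.821). Ptgs1 came with Bmp2 (0.927), F5 (0.889) and Pf4 (0.887), and Tbxas1 with Hacd4 (0.865), F5 (0.857) and Dstn (0.843), so both genes found in macrophages and platelets shared F5. Alox5 came with Hnmt (0.915), Hk3 (0.898) and Nlrp3 (0.888), Alox5ap with Prdx5 (0.931), Ifitm2 (0.917) and the phospholipase gene Pla2g4a (0.910), and Ptgs2 with Rab44 (0.887), Id1 (0.886) and Adora2b (0.857). Hpgd came with Gsr (0.864), Pi16 (0.826) and Skint3 (0.822). The sums share libraries and depth, so these coefficients describe likeness only.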

How the data were processed

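The authors deposited filtered count matrices of unique molecular identifiers per gene and cell, 1 for each strain and age. They were made with Cell Ranger 7.0.1 per the file headers, and the submitters' processing notes name mm10 and Seurat 4.3.0. No cell annotation was used. Kept cells had at least 500 UMIs, 200 genes and at most 10% mitochondrial UMIs, and 125 called doublets (Scrublet in scanpy 1.11.5, expected rate 0.06) were left out. The 4 libraries were clustered together on 2000 variable genes, 30 components and 15 neighbours at resolution 1.0, giving 26 clusters, without the 10 genes and 47 pathway genes. Clusters were named from marker lists, except 2 left unnamed. One of these has 6 of 6 B cell markers and holds 595 and 439 SM/J cells, so the SM/J B cell values leave out part of that lineage, which some alternatives name as B cells. Raw counts were summed by class and library, and total gene UMIs ran from 14250603 to 30627356 per library. CPM carry exact Poisson intervals, shares exact Clopper-Pearson intervals and ratios conditional binomial intervals, at the 95% level, covering counting error only. Where no cell had a UMI, the share said to be allowed is instead 3 divided by the number of cells. Log2 ratios add a pseudocount of 1 CPM. A ratio counts as past 2-fold with at least 50 UMIs over both libraries. With 1 library per strain and age, no test was made. Aliquots of at least 20 cells show spread. Pathway genes were named when past 2-fold in the same direction in at least 2 comparisons with at least 50 UMIs each, or when 1 class held 3 times the next in all libraries. Genes of like pattern were ranked by Pearson r of log2(CPM + 1). The code was tested on simulated data. The alternatives were other clusterings, filters, scaling (TMM in edgeR 4.0.16), pseudocount, thresholds, thinning and leaving out aliquots or cells with platelet transcripts. The genes and lists were chosen with earlier results of these data known.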

Additional observations from a re-analysis of the deposited data

Results flagged for a closer look

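Alox15 in cavity macrophage-like cells had age ratios of opposite sign in the strains. On the log2 scale the ratio of 20 over 12 months was -0.42 in BL/6 and 0.25 in SM/J, each with a counting interval that excluded 0. The difference was not tested, since each strain and age is 1 library. The BL/6 values came from 30 and 38 cells and the SM/J values from 35 and 398 cells.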

How the results depend on the processing

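Of 67 ratios with at least 50 UMIs, 10 were past 2-fold. Over 920 recomputations under the alternatives, 19 lay on the other side of 2-fold and 1 of a ratio past 2-fold changed sign: Hpgd in cavity macrophages of BL/6, 20 over 12 months, was -0.76 without aliquot 1 of the 20-month library and up to 1.72 without the others in turn. Ratios under 2-fold also changed sign, among them some of classical monocytes. Without cells with a Pf4 or Ppbp UMI, the ratios between the BL/6 ages were -0.17 for Ptgs1 and -0.19 for Ptgs2. That of Ptgs1 then came from 5 UMIs at each age, too few for the 50 UMI rule. With each strain clustered alone, Tbxas1 in classical monocytes was 1.07 between the SM/J ages and 0.93 between the strains at 20 months. Tbxas1 between the SM/J ages was 0.20 without SM/J aliquot 1 at 12 months, and Hpgds between the strains in nonclassical monocytes at 20 months was -0.52 without SM/J aliquot 1. With a pseudocount of 5 CPM the Hpgd strain ratio was -4.30 and -4.78 in nonclassical and -4.64 and -3.64 in classical monocytes at 12 and 20 months. Without cells with a Pf4 or Ppbp UMI it was -7.50 and -6.95 in classical monocytes. No SM/J Hpgd UMI was left there, so the pseudocount of 1 CPM sets the size of both. Leaving out 1 aliquot at a time, the Hpgd strain ratio ran from -4.84 to -4.57 at 12 and from -5.74 to -5.08 at 20 months in nonclassical monocytes. In classical monocytes it ran from -7.23 to -5.69 and from -6.48 to -4.00. The ends at -7.23 and -6.48 came with no SM/J Hpgd UMI left, so the pseudocount sets them. The Alox15 age ratio in macrophages then ran from -0.52 to -0.30 in BL/6 and from 0.18 to 0.27 in SM/J. The 16 of 156 pathway pairs past 2-fold became 37 of 233 with at least 20 UMIs, 10 of 82 with at least 200 UMIs and 46 of 156 at 1.5-fold. The shares of all genes under these settings were not counted. At resolution 2.0 the BL/6 Hpgd level was 125 and 53.8 CPM in classical and 254 and 295 CPM in nonclassical monocytes, and that of Alox5 in nonclassical monocytes 43.1 and 49.7 CPM. Tbxas1 in nonclassical monocytes passed 2-fold at resolution 2.0 between the BL/6 ages (-1.13) and between the strains at 12 months (-2.03). In classical monocytes without cells with a Pf4 or Ppbp UMI, the Tbxas1 strain ratios were -1.10 and -1.31, and that of Ptgs2 at 20 months was -1.06. Without SM/J aliquot 1 the Tbxas1 strain ratio at 12 months was -1.29, and without SM/J aliquot 3 that of Ptgs2 at 20 months was -1.09. The cause was not tested. Thinning to 1000 UMIs moved 54 of 62 shares of cells, by its construction. The 5% mitochondrial limit, leaving out platelet-marked cells and leaving out some aliquots gave no value where fewer than 20 cells were left. Few cells limit the SM/J basophil values (15 and 11 cells), and few UMIs the SM/J Hpgd values. No paired analysis was possible because each strain and age is 1 library and what a tag number marks is not given in the sources used here.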
